A study of Mus musculus with 4 samples.

Results

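The collagen chains outside type IV and the proteins that process them were followed in hearts of Jun delta mu and Junf/f mice. The set holds 37 genes, 25 collagen chains and 12 processing enzymes and helpers, out of 18193 genes measured, and was drawn up by name and not by signal. All probe sets that carry the name of 1 of these genes alone were taken, which gave 70 of 45037 probe sets, 47 for the chains and 23 for the enzymes. RNA came from whole hearts of mice 10 weeks old, 2 Jun delta mu and 2 Junf/f, with 1 Affymetrix mouse array per heart. Mice of both groups carry floxed alleles of *Jun*, the gene of the AP-1 transcription factor c-Jun, on a mixed 129/Ola-C57BL/6 background. Jun delta mu mice also carry Cre recombinase driven by the muscle creatine kinase promoter, which removes *Jun* in striated muscle cells, whereas Junf/f mice have no Cre. Fibroblasts, the main source of collagen in the heart, keep *Jun* in both groups. The mice were not under pressure overload. The growth notes of the samples describe plated cells of digested ventricles, whereas titles, source and methods give whole hearts, and this conflict was not resolved.

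Collagens are proteins of the extracellular matrix in which 3 chains wind into a triple helix. Inside the endoplasmic reticulum, prolyl hydroxylases modify prolines so that the helix is stable at body temperature, lysyl hydroxylases modify lysines that later carry sugars and cross-links, and the chaperone Serpinh1 binds the folded helix. Outside the cell, propeptides are cut off and lysyl oxidases start the cross-links that give fibrils their strength. In the heart, types I and III form the interstitial fibrils, type V sets their diameter, type VI forms a fine network near cell surfaces, and an excess of fibrils is the fibrosis that stiffens the muscle.

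The targeted gene was lower in Jun delta mu hearts by both of its probe sets, by -1.57 and -1.24 on the log2 scale, without overlap between the groups. The cardiac muscle gene *Myh6* lay between 14.67 and 14.72 on all 4 arrays, and 0 of 6 cardiac muscle markers differed by over 1.3-fold between the groups. Median signals over all probe sets were 5.45 to 5.47. Junf/f replicate 1 stood apart, where 104 probe sets differed over 2-fold from the average of the remaining arrays, a count of 24 to 33 on any other array. Jun delta mu replicate 2 held the atrial genes *Sln* at 8.11, *Myl7* at 9.11 and *Myl4* at 9.02, against 4.10, 5.02 and 6.03 on Jun delta mu replicate 1 and 3.81 to 5.93 on the Junf/f arrays. The hearts are given as separate animals without a statement on litters. The limma p-values rest only on the spread between these hearts and a variance prior shared over all probe sets.

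Few of these genes passed the threshold for a change. The chains *Col8a1* and *Col14a1*, and 1 lysyl oxidase, *Loxl4*, were higher in Jun delta mu hearts by their brightest probe set, *Bmp1* was higher by a dimmer one, and the prolyl hydroxylase subunit *P4ha1* was lower by a dimmer one. The main fibril chains *Col1a1*, *Col1a2* and *Col3a1*, the chaperone *Serpinh1* and the lysyl hydroxylases did not pass. Here a probe set passed the study's threshold when the groups differed by more than 1.3-fold with an unadjusted p under 0.05 in limma, and each difference is the group mean (log2) of Jun delta mu minus Junf/f hearts. Of the 47 chain probe sets, 2 were higher, 0 lower and 45 did not pass. Of the 23 enzyme probe sets, 2 were higher, 1 lower and 20 did not pass. Over all probe sets 1.53% passed, 0.568% as higher and 0.959% as lower. All 5 genes that passed are also in the study's own list of changed genes, so their count is not independent evidence. The study chose that list on these arrays with this contrast, or for selected genes by quantitative RT-PCR. Among the 57 probe sets of the other 32 genes, 0 passed, and 1 had an unadjusted p under 0.05. With limma, 0 of all probe sets had an adjusted p under 0.05 and 2326 (5.16%) an unadjusted p under 0.05. The smallest adjusted p among the 70 was 0.896. With the methods' t-test 0 of the 70 passed the same threshold, against 0.444% of all probe sets.

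The median differences of chains and enzymes were small. By the brightest probe set of each gene, the median difference was 0.05 for the 25 chains and 0.05 for the 12 enzymes, against 0.01 over all 18193 genes. The chains ran between -0.16 and 0.46 and the enzymes between -0.40 and 0.41. Differences were above 0 for 20 of 25 chains and 8 of 12 enzymes, against 52.2% of all genes. The enzyme median was -0.0024 without Junf/f replicate 1 and 0.0018 without Jun delta mu replicate 2, and that of the chains was 0.09 without Junf/f replicate 2. Of the 37 genes, 20 had a 95% confidence interval inside 1.3-fold in both directions by this probe set, 15 chains and 5 enzymes. Among them, *Col8a2*, *Col11a2*, *Col13a1* and *Col23a1* had signals below the median of the array, so a narrow interval says little there. *Col1a2*, *Col5a3*, *Col12a1*, *Col18a1*, *Col23a1*, *Col27a1* and *Bmp1* each had a dimmer probe set whose interval exceeded 1.3-fold. For the other 17 these arrays leave room for a change of that size or more.

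**Figure D1:**
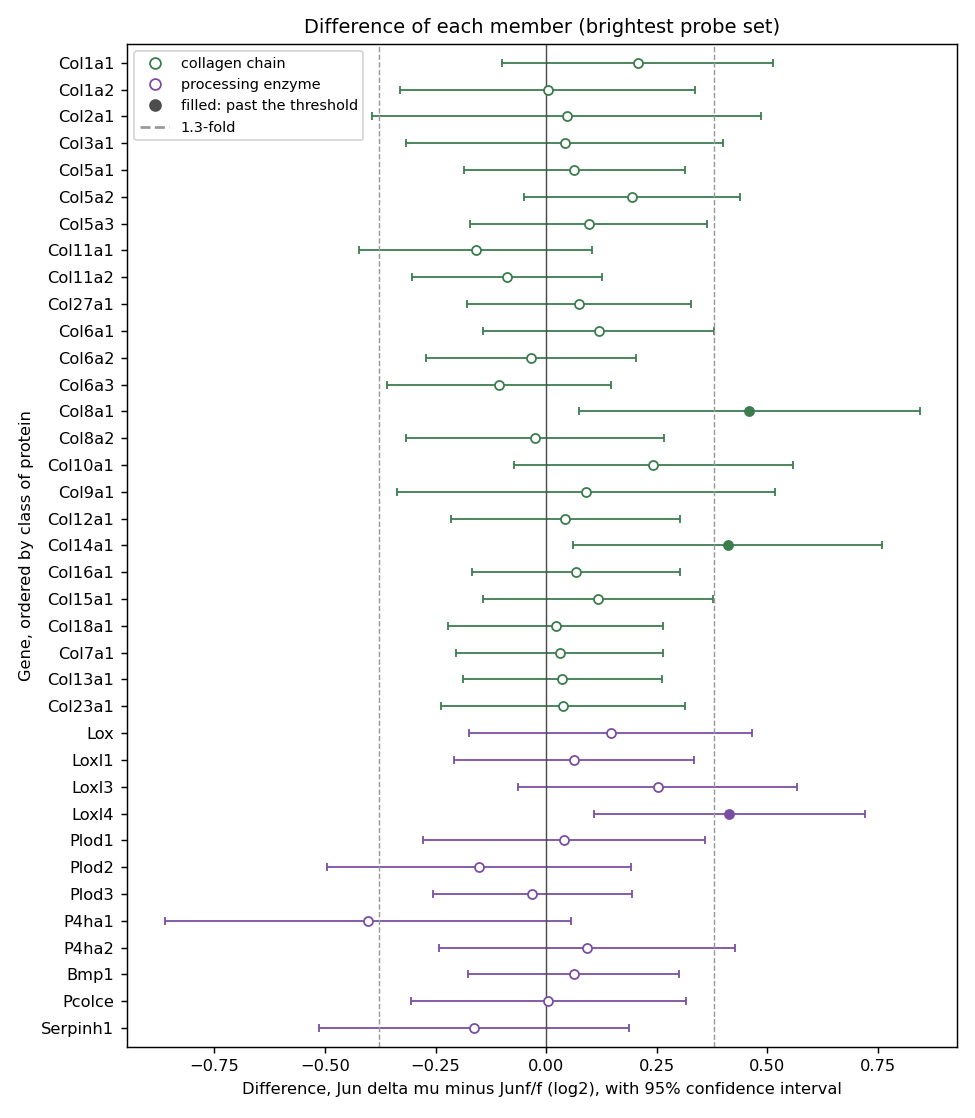
Difference in log2 signal, Jun delta mu minus Junf/f, for the brightest probe set of each of the 37 genes, with its 95% confidence interval from limma. Chains are green and enzymes purple, filled points passed the study's threshold and dashed lines mark 1.3-fold. *Col8a1*, *Col14a1* and *Loxl4* are the filled points, at 0.46, 0.41 and 0.41, and most others sit near 0.

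*Col8a1* encodes a short chain that forms hexagonal networks in vessel walls and in remodeling matrix. By its brightest probe set its log2 signal was 8.40 and 8.82 in Jun delta mu hearts, against 8.19 and 8.11 in Junf/f hearts. Both Jun delta mu hearts lay above both Junf/f hearts, as they did for 17.3% of all probe sets. The difference was 0.46 (standard error 0.15, limma adjusted p = 0.896), or 1.37-fold with a 95% confidence interval of 1.05-fold to 1.80-fold. Its size moved most with the Jun delta mu heart left out. It was 0.25 and no longer passed without Jun delta mu replicate 2, the array with the high atrial signals, and 0.67 without Jun delta mu replicate 1. Without either Junf/f replicate it was 0.50 and 0.42 and did not pass. The part of atrial tissue in this difference was not tested. A dimmer probe set read 6.90 and 7.06 in Jun delta mu hearts, against 6.89 and 6.48 in Junf/f hearts, a difference of 0.29 that did not pass. The dimmest differed by -0.05. The median over the 3 probe sets, 0.29, did not pass, and was on each array the reading of the middle one.

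*Col14a1* encodes a chain of collagen XIV, which sits on the surface of fibrils and limits their lateral growth. Its log2 signal was 7.70 and 7.71 in Jun delta mu hearts, against 7.11 and 7.48 in Junf/f hearts. The Jun delta mu hearts were level with each other, and the distance to the controls depended on which Junf/f heart was used. The difference was 0.41 (standard error 0.14, limma adjusted p = 0.896), 0.23 without Junf/f replicate 1, where it did not pass, and 0.59 without Junf/f replicate 2. It stayed near this size, at 0.42 and 0.40, without either Jun delta mu replicate, and did not pass. In those fits the spread comes from the Junf/f arrays and the shared variance prior only. Its other 2 probe sets differed by 0.03 and -0.17, so that the median over its probe sets was 0.03 and did not pass.

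The other network-forming and fibril-associated chains did not pass. *Col10a1*, a chain of cartilage at the growth plate, read 4.48 and 4.47 in Jun delta mu hearts, against 4.08 and 4.39 in Junf/f hearts, a difference of 0.24. The groups did not overlap, as for 17.3% of all probe sets in this direction, and these signals lay below the median of the array. *Col8a2*, the partner chain of *Col8a1* in type VIII collagen, differed by -0.03. *Col12a1*, *Col16a1* and *Col9a1*, which like *Col14a1* bind to fibril surfaces, differed by 0.04, 0.07 and 0.09. A dim probe set of *Col12a1* read 3.55 and 4.29 in Jun delta mu hearts, against 4.20 and 3.91 in Junf/f hearts, which was the widest gap between Jun delta mu replicates in the set.

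Of the 20 probe sets of fibril-forming chains, 0 passed. *Col1a1*, a chain of type I collagen, read 8.80 and 8.83 in Jun delta mu hearts, against 8.47 and 8.75 in Junf/f hearts. Both Jun delta mu values were above both Junf/f values, as for 17.3% of all probe sets. The difference was 0.21 (standard error 0.12), with a 95% confidence interval of -0.10 to 0.51. It was 0.06 without Junf/f replicate 1 and 0.35 without Junf/f replicate 2, both under 1.3-fold. Its second probe set gave 7.32 and 7.17 in Jun delta mu hearts, against 7.35 and 7.06 in Junf/f hearts, a difference of 0.04. The separation of the groups was thus seen by 1 of its 2 probe sets.

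*Col1a2*, the partner chain of *Col1a1*, read 10.93 and 11.08 in Jun delta mu hearts, against 11.15 and 10.85 in Junf/f hearts, and differed by 0.00. *Col3a1*, the single chain of type III collagen, read 11.52 and 11.53 in Jun delta mu hearts, against 11.67 and 11.29 in Junf/f hearts, and differed by 0.04, with a 95% confidence interval of -0.32 to 0.40. For both genes the Jun delta mu hearts fell between the Junf/f hearts. By quantitative RT-PCR, a different measure, the paper reported significantly higher *Col1a1*, *Col3a1* and fibronectin in Jun delta mu hearts at baseline. Its baseline hearts in that figure were sham-operated and in larger groups, whereas the arrays are of non-stimulated hearts. The paper also reported mild fibrosis by tissue staining in Jun delta mu hearts at baseline.

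The Junf/f hearts disagreed on these fibril chains, and some calls turned with the control used. By its dimmer probe set *Col3a1* read 7.49 and 7.40 in Jun delta mu hearts, against 7.85 and 6.81 in Junf/f hearts. The Junf/f replicates were thus 1.04 apart on the log2 scale, the widest gap within a genotype among the 70 probe sets, and the Jun delta mu replicates 0.09. Against Junf/f replicate 2 alone the difference was 0.64 and past the threshold, and against Junf/f replicate 1 alone it was -0.40 and past the threshold. Opposite signs follow from Jun delta mu values that lie between the Junf/f values, and in a fit with 1 Junf/f array the spread comes from the Jun delta mu arrays and the shared variance prior only, so these calls leave out the spread between controls. The middle probe set of *Col1a2* read 8.53 and 8.64 in Jun delta mu hearts, against 8.76 and 8.17 in Junf/f hearts, and passed as higher without Junf/f replicate 1, at 0.41. Its dimmest, at 3.60 and 3.63 in Jun delta mu hearts, against 4.001 and 3.46 in Junf/f hearts, passed as lower without Junf/f replicate 2, at -0.39. Without Junf/f replicate 1, 4 chain probe sets were higher and 1 was lower, against 2.22% of all probe sets past the threshold in that fit. Without Junf/f replicate 2, 2 were higher and 2 lower, against 7.66% of all.

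Over the set, as over all probe sets, the gap between the Junf/f replicates was as a rule larger than the difference between genotypes. It exceeded that difference for 37 of 47 chain probe sets and 16 of 23 enzyme probe sets, against 65.2% of all. In 17 of the 47 chain probe sets and 5 of the 23 enzyme probe sets both Jun delta mu hearts lay between the Junf/f hearts, against 21.5% of all probe sets. For the 20 probe sets of fibril-forming chains the median gap was 0.10 between Jun delta mu replicates and 0.26 between Junf/f replicates, against 0.10 and 0.14 over all probe sets.

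**Figure D2:**
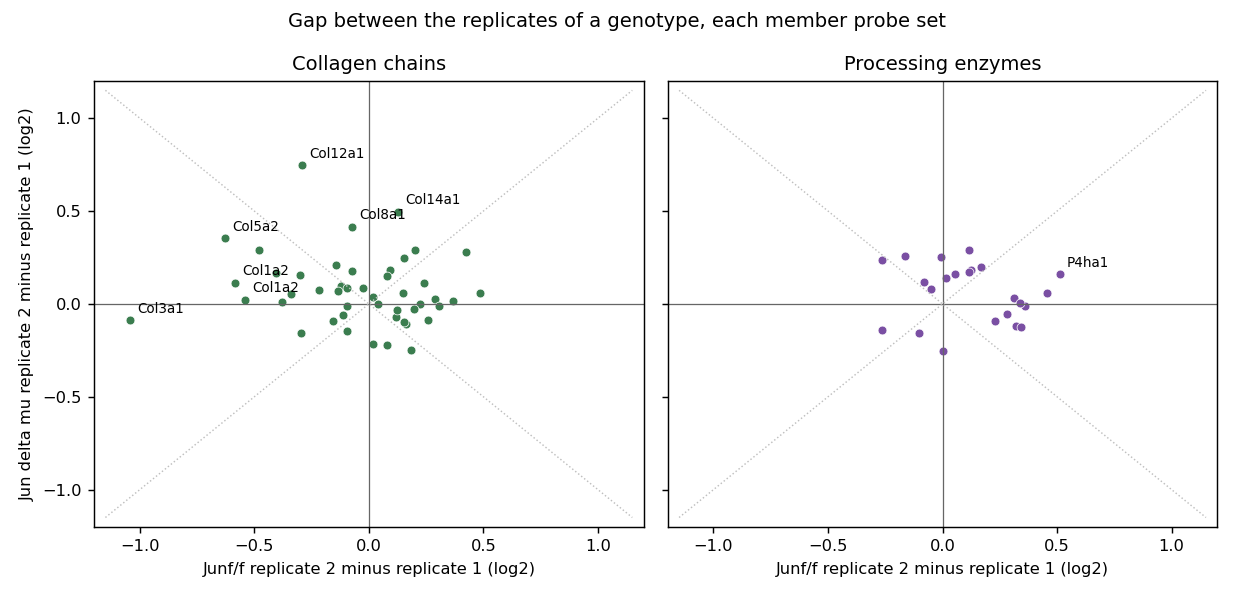
Replicate 2 minus replicate 1 in log2 signal within Junf/f (horizontal axis) and within Jun delta mu hearts (vertical axis) for each of the 70 probe sets, with dotted lines where the gaps are of equal size and names where a gap exceeds 0.5 in Junf/f or 0.4 in Jun delta mu hearts. The dimmer *Col3a1* probe set lies farthest left, at -1.04, and *Col12a1* highest, at 0.75.

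*Col5a2*, a chain of the type V collagen found in the core of fibrils, read 9.14 and 9.24 in Jun delta mu hearts, against 9.06 and 8.93 in Junf/f hearts. The groups did not overlap, as for 17.3% of all probe sets in this direction. The difference was 0.19 (standard error 0.10), with a 95% confidence interval of -0.05 to 0.44. A second probe set gave 6.04 and 6.40 in Jun delta mu hearts, against 6.30 and 5.68 in Junf/f hearts, a difference of 0.23 with overlap. *Col5a2* is the next protein-coding gene to *Col3a1* on mouse chromosome 1.

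*Col5a1*, its partner chain, read 8.61 and 8.46 in Jun delta mu hearts, against 8.52 and 8.43 in Junf/f hearts, and its 3 probe sets differed by -0.04 to 0.06. *Col5a3* differed by 0.10 by its brightest probe set. A dim one of it, at 3.57 and 3.57 in Jun delta mu hearts, against 3.74 and 3.96 in Junf/f hearts, was lower by -0.28 with an unadjusted p of 0.044 in limma, short of 1.3-fold. *Col2a1*, *Col11a1*, *Col11a2* and *Col27a1*, fibril chains best known from cartilage, differed by 0.05, -0.16, -0.09 and 0.07. Both *Col11a1* and *Col11a2* lay lower in each Jun delta mu heart than in each Junf/f heart by their brightest probe sets, as 16.7% of all probe sets did.

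Of the 4 probe sets of type VI collagen, 0 passed. *Col6a1* read 9.58 and 9.55 in Jun delta mu hearts, against 9.35 and 9.55 in Junf/f hearts, a difference of 0.12. *Col6a2*, its neighbour on mouse chromosome 10, read 10.16 and 10.09 in Jun delta mu hearts, against 10.10 and 10.22 in Junf/f hearts, and differed by -0.03. *Col6a3*, the longest of the 3 chains, read 8.94 and 8.85 in Jun delta mu hearts, against 9.08 and 8.93 in Junf/f hearts, and differed by -0.11. All of these differences were smaller than the gap between the Junf/f replicates.

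*Col15a1*, a chain that links basement membranes to the matrix around heart muscle cells and capillaries, read 7.87 and 7.76 in Jun delta mu hearts, against 7.61 and 7.78 in Junf/f hearts, and differed by 0.12. *Col18a1*, the source of endostatin, differed by 0.02. *Col7a1*, the chain of anchoring fibrils in skin, and the transmembrane chains *Col13a1* and *Col23a1* differed by 0.03, 0.04 and 0.04. None of these 5 genes had a probe set past the threshold or without overlap.

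**Figure D3:**
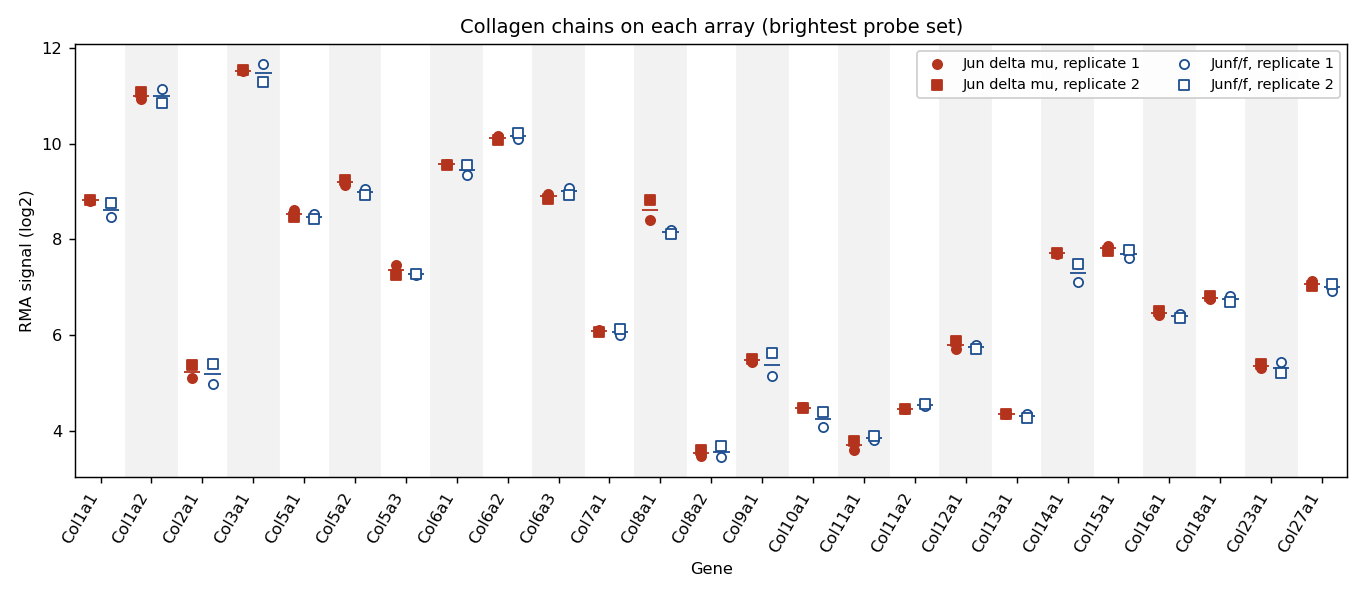
RMA signal (log2) of the 25 collagen chains on each array by the brightest probe set of each gene, with filled symbols for Jun delta mu hearts and open ones for Junf/f hearts. Circles are replicate 1, squares replicate 2 and short lines group means. *Col8a1* has its filled square highest, at 8.82, and *Col14a1* has both filled symbols near 7.7 above both open ones, while for *Col3a1* the filled symbols lie between the open ones. Heights are not comparable between genes.

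Among the 23 enzyme probe sets, a dimmer one of the prolyl hydroxylase subunit *P4ha1* had the largest difference and the only decrease that passed. P4ha1 carries the active site of the enzyme that hydroxylates proline in the helix, and its gene is known to respond to low oxygen. Its brightest probe set read 8.25 and 8.41 in Jun delta mu hearts, against 8.47 and 8.99 in Junf/f hearts. The dimmer one read 7.06 and 7.12 in Jun delta mu hearts, against 7.42 and 7.88 in Junf/f hearts. By both probe sets each Jun delta mu heart was below each Junf/f heart, as for 16.7% of all probe sets. Junf/f replicate 2 was the highest array by both. The difference was -0.56 (standard error 0.16, limma adjusted p = 0.896) by the dimmer probe set, or 0.677-fold with a 95% confidence interval of 0.510-fold to 0.899-fold. By the brightest it was -0.40 (standard error 0.18), with an unadjusted p of 0.075 in limma, and did not pass. Without Junf/f replicate 2 the differences were -0.33 and -0.15 and neither passed, and without Junf/f replicate 1 they were -0.79 and -0.66 and both passed. Without either Jun delta mu replicate the dimmer probe set still differed by -0.53 and -0.59. It did not pass in these fits, whose spread comes from the Junf/f arrays and the shared variance prior only. As the median over both probe sets, *P4ha1* was lower by -0.48 and passed.

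*P4ha2*, which encodes the alternative catalytic subunit, read 9.10 and 8.98 in Jun delta mu hearts, against 8.79 and 9.11 in Junf/f hearts, and differed by 0.09, with the Jun delta mu hearts between the Junf/f hearts. *P4hb*, the partner subunit of both, was at 11.47 and 11.52 in Jun delta mu hearts, against 11.71 and 11.52 in Junf/f hearts. In whole hearts, fewer cells of a type and less RNA per cell cannot be told apart.

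*Loxl4*, a lysyl oxidase of the scavenger receptor subfamily, read 5.31 and 5.26 in Jun delta mu hearts, against 4.73 and 5.01 in Junf/f hearts. The groups did not overlap, as for 17.3% of all probe sets in this direction. The difference was 0.41 (standard error 0.12, limma adjusted p = 0.896), or 1.33-fold with a 95% confidence interval of 1.08-fold to 1.65-fold. It was 0.27 without Junf/f replicate 1, under 1.3-fold. Without either Jun delta mu replicate it stayed at 0.39 and 0.44 and did not pass, with the spread taken from the Junf/f arrays and the shared prior only. Its second probe set, of about the same signal, read 4.91 and 5.16 in Jun delta mu hearts, against 5.04 and 5.03 in Junf/f hearts, and differed by 0.00. The median over both, 0.21, did not pass. Both probe sets lay below the median signal of the array.

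The other lysyl oxidases pointed the same way but did not pass. *Lox*, the enzyme that starts most fibril cross-links, read 6.71 and 6.997 in Jun delta mu hearts, against 6.65 and 6.76 in Junf/f hearts, differing by 0.15 with all arrays and by -0.0004 once Jun delta mu replicate 2 was left out. *Loxl1*, which acts mainly on elastin, read 9.40 and 9.58 in Jun delta mu hearts, against 9.36 and 9.49 in Junf/f hearts. It differed by 0.06 with all arrays and by -0.028 without Jun delta mu replicate 2. *Loxl3* read 6.29 and 6.54 in Jun delta mu hearts, against 6.25 and 6.08 in Junf/f hearts, and differed by 0.25. Its groups did not overlap, as for 17.3% of all probe sets in this direction. All 8 probe sets of the 4 genes had differences above 0, between 0.00 and 0.41, against 50.4% of all probe sets. They stand for 4 genes read on the same hearts, so they are not 8 independent readings.

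*Bmp1* encodes the protease that removes the carboxy-terminal propeptide and so lets fibrils form. By its brightest probe set it read 7.91 and 8.03 in Jun delta mu hearts, against 7.95 and 7.87 in Junf/f hearts, and differed by 0.06. A dimmer probe set read 5.26 and 5.01 in Jun delta mu hearts, against 4.70 and 4.70 in Junf/f hearts, and was higher by 0.43 (standard error 0.11, limma adjusted p = 0.896). It did not pass without Jun delta mu replicate 1, at 0.31. The Junf/f readings of this probe set were identical, so its standard error holds no spread between controls. That error comes from the Jun delta mu arrays and the shared variance prior only. The remaining *Bmp1* probe set differed by 0.14. The call on *Bmp1* thus rests on 1 of 3 probe sets, with signals below the median of the array. The median over the 3 probe sets also differed by 0.43 and passed. On each array this median is the reading of the same dimmer probe set, so it is not a further check of the call. *Pcolce*, the helper that speeds up this cleavage, read 10.17 and 10.03 in Jun delta mu hearts, against 10.22 and 9.96 in Junf/f hearts, and both of its probe sets differed by less than 0.01.

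Lysyl hydroxylases and the chaperone did not pass. *Plod1*, which modifies lysines in the helix, read 9.15 and 9.19 in Jun delta mu hearts, against 8.98 and 9.29 in Junf/f hearts, and differed by 0.04. *Plod2*, which modifies lysines in the telopeptides, read 8.47 and 8.71 in Jun delta mu hearts, against 8.88 and 8.61 in Junf/f hearts, and its 2 probe sets differed by -0.15 and 0.03. *Plod3*, which also adds sugars to hydroxylysine, read 9.02 and 9.10 in Jun delta mu hearts, against 9.11 and 9.06 in Junf/f hearts, and differed by -0.03. *Serpinh1*, also known as Hsp47, read 11.03 and 10.90 in Jun delta mu hearts, against 10.96 and 11.30 in Junf/f hearts. Its difference of -0.16 was 0.01 without Junf/f replicate 2 and -0.34 without Junf/f replicate 1. As with *P4ha1*, Junf/f replicate 2 was the highest array.

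**Figure D4:**
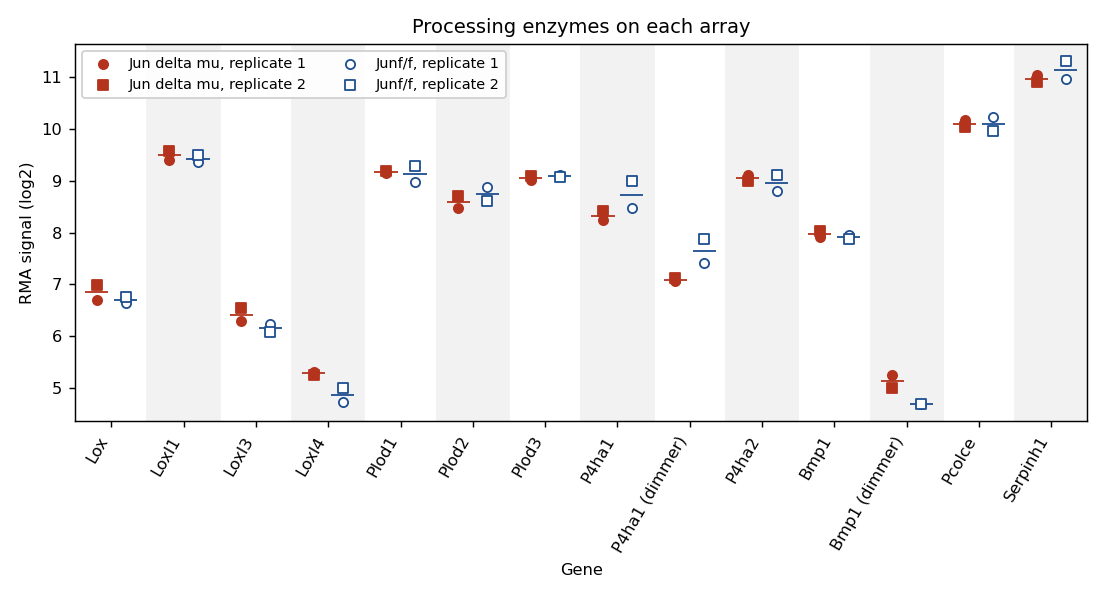
RMA signal (log2) of the 12 processing enzymes and helpers on each array by the brightest probe set of each gene, and by the dimmer probe sets of *P4ha1* and *Bmp1* that passed the threshold. Filled symbols are Jun delta mu and open ones Junf/f hearts, circles are replicate 1, squares replicate 2 and short lines group means, and the filled symbols lie below the open ones for both *P4ha1* probe sets and above them for *Loxl4*, *Loxl3* and the dimmer *Bmp1* probe set.

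Probe sets of 1 gene often disagreed. Of the 24 genes with several probe sets, 11 had differences of 1 sign and 13 of both signs, and the median spread of the differences among a gene's probe sets was 0.165. For none of the 5 genes that passed did all probe sets pass. The spread was 0.58 for *Col14a1*, the widest of the set, 0.51 for *Col8a1*, 0.41 for *Loxl4*, 0.37 for *Bmp1* and 0.16 for *P4ha1*. Both probe sets of *P4ha1* were lower without overlap between the groups, as 16.7% of all probe sets were, and Junf/f replicate 2 was highest in both. Each of the other genes that passed had a probe set with overlap. *P4ha1* and *Loxl4* have 2 probe sets, and *Col8a1*, *Col14a1* and *Bmp1* have 3.

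**Figure D5:**
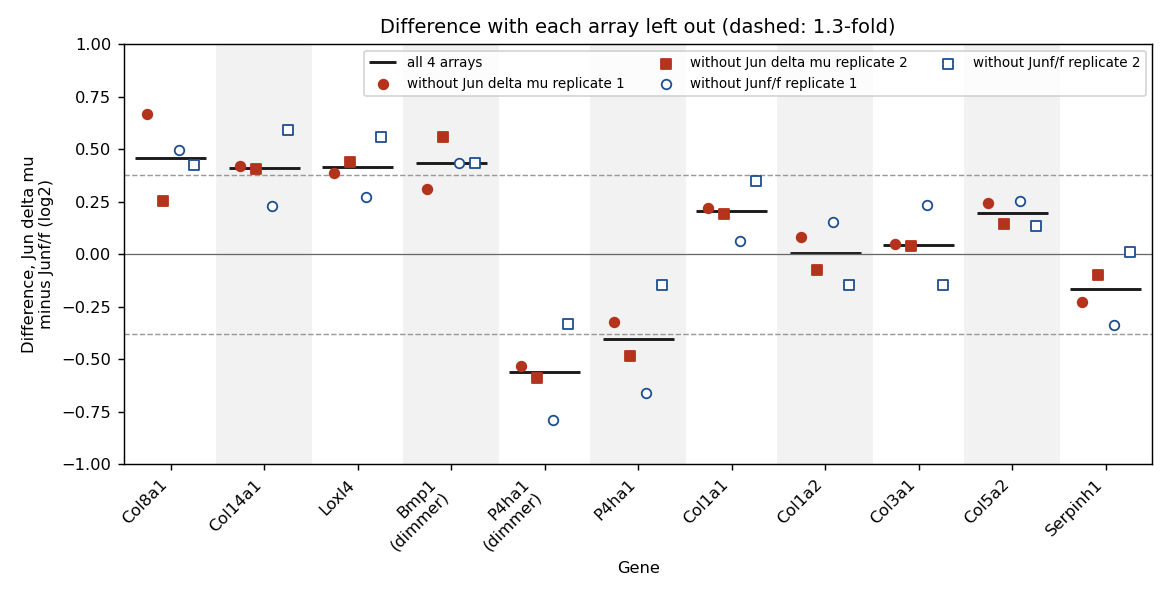
Difference in log2 signal, Jun delta mu minus Junf/f, of 11 probe sets with all 4 arrays (black lines) and with each array left out, with dashed lines at 1.3-fold. Filled symbols leave out a Jun delta mu array and open symbols a Junf/f array, circles replicate 1 and squares replicate 2; *Col1a2* and *Col3a1* change sign with the Junf/f array left out, and *P4ha1* stays below 0 throughout, between -0.66 and -0.15 by its brightest and between -0.79 and -0.33 by its dimmer probe set.

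Promoters are shown for the genes that passed and have an entry in the RefSeq promoter table of GRCm38.p6, and for the 1 gene of the set whose promoter holds the AP-1 motif TGANTCA, the site c-Jun binds with its partners. The 250 bases before the start of transcription were searched on both strands for this motif and for ACGTG, the core of the hypoxia response element, and no promoter of the set held both. The table holds 30 promoters of 27 of the 37 genes. TGANTCA stood in 1 of the 30, that of *Col6a1*, against 6.75% of all 32851 promoters. ACGTG stood in 7 of the 30, against 16.6% of all, and those were the promoters of *Col1a2*, *Col5a1*, *Col11a2*, *P4ha1*, *P4ha2*, *Plod3* and *Serpinh1*. A match describes letters and is not a site shown to be bound. Sequences run 5′ to 3′ on the strand of the gene and end at the base before the start, with a match in capitals. *Col8a1* is at chr16:57754738-57754987 (minus strand), *Loxl4* at chr19:42612807-42613056 (minus strand), *P4ha1* at chr10:59323046-59323295 (plus strand) and *Col6a1* at chr10:76726045-76726294 (minus strand).
Col8a1: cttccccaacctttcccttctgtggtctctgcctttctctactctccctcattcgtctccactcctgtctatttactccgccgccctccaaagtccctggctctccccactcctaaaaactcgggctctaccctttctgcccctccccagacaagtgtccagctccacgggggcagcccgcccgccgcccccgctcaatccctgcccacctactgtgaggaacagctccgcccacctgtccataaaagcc
Loxl4: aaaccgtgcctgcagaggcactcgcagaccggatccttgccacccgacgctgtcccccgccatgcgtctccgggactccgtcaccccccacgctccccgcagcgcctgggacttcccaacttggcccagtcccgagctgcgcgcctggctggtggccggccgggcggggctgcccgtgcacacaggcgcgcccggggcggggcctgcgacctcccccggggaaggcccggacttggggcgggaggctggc
P4ha1: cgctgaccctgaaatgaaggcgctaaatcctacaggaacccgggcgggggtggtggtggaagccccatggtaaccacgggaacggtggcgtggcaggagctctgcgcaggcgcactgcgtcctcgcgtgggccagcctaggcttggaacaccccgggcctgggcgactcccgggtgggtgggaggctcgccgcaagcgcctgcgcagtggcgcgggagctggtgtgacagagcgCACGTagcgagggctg
Col6a1: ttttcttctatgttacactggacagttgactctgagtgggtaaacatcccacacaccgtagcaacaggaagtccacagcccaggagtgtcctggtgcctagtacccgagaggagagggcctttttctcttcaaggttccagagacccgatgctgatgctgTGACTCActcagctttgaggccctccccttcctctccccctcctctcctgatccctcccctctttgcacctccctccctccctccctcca
The *Col8a1* and *Loxl4* windows, of genes that were higher, hold neither motif. The *P4ha1* window holds ACGTG on the opposite strand, read here as CACGT, with its first base 16 bases before the start. The *Col6a1* window holds TGACTCA with its first base 90 bases before the start, and *Col6a1* did not pass.

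None of the other lists of collagen assembly had a gene past the threshold by its brightest probe set. Of 15 other collagen chains measured, the type IV chains of basement membranes among them, 0 passed in either direction, with a median difference of 0.01. *Col4a1* read 11.13 and 11.20 in Jun delta mu hearts, against 11.12 and 11.17 in Junf/f hearts. Of 17 further modifying, folding and secretion proteins, 0 passed, with a median of -0.05. *Ppib*, a prolyl isomerase of the same folding complex, read 10.73 and 10.72 in Jun delta mu hearts, against 10.95 and 10.84 in Junf/f hearts, a difference of -0.17. Of 7 collagen receptors 0 passed, with a median of 0.00. Of 16 genes known to respond to low oxygen, as *P4ha1*, *P4ha2*, *Plod1*, *Plod2* and *Lox* also do, 0 passed, with differences between -0.29 and 0.62 and a median of 0.05. By the brightest probe set of each gene, 1.45% of all genes passed.

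Some genes on the lists of cell type markers also differed. Of 10 fibroblast markers, *Pi16* was higher past the threshold, at 8.92 and 9.03 in Jun delta mu hearts, against 8.45 and 8.59 in Junf/f hearts, and 9 did not pass. *Lum*, a proteoglycan on collagen fibrils, read 11.35 and 11.37 in Jun delta mu hearts, against 11.08 and 10.99 in Junf/f hearts, and *Pdgfra*, a defining marker of fibroblasts, differed by -0.09. The median of the 10 was 0.07, and their summed log2 signal was 104.5 and 105.7 in Jun delta mu hearts, against 104.4 and 103.3 in Junf/f hearts. Of 8 genes that mark heart valves and cartilage-like tissue, *Cilp*, *Prg4* and *Chad* passed as higher. Differences were above 0 for 6 of the 8, whereas *Cytl1* and *Sox9* differed by -0.18 and -0.12. The median over the 8 was 0.36. Their summed signals were 50.2 and 53.6 in Jun delta mu hearts, against 48.8 and 49.2 in Junf/f hearts. The cartilage chains *Col2a1*, *Col9a1* and *Col11a1* did not pass. Of 4 smooth muscle markers *Cnn1* was lower past the threshold, and all 4 had differences below 0, with a median of -0.49. Summed smooth muscle signals were 29.6 and 31.2 in Jun delta mu hearts, against 33.0 and 31.8 in Junf/f hearts. Of 4 endothelial and 4 macrophage markers 0 passed, with medians of -0.15 and 0.08. Of 6 skeletal muscle markers *Mybpc2* and *Casq1* were lower past the threshold, by -2.30 and -1.52, and 4 did not pass. Those 4, *Myh4*, *Myh1*, *Actn3* and *Ckm*, differed by -0.09, 0.01, -0.10 and 0.02. *Myh4*, *Myh1* and *Actn3* lay below the median signal of the array. The paper counts *Mybpc2* among accessory sarcomere components and reported it lower in unstimulated Jun delta mu hearts by quantitative RT-PCR. Of 2 adipocyte markers measured 0 passed, and *Adipoq* read 5.40 and 4.96 in Jun delta mu hearts, against 4.40 and 4.93 in Junf/f hearts. The part of these cell types in the collagen values was not tested.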

How the data were processed

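Total RNA of 2 Jun delta mu and 2 Junf/f hearts was hybridised by the authors to Affymetrix arrays. The deposited log2 signals were made by RMA with the R package oligo per the submitters' processing notes, which name no version, and RMA corrects background, normalizes between arrays and summarizes the probes of a set. No intensities were used here, and 4 arrays limit the precision. From the deposited values, 64 control probe sets were left out and 45037 were fitted by genotype in limma 3.58.1 (R 4.3.3) with lmFit and eBayes, and p-values were adjusted over all of them by Benjamini-Hochberg. The threshold of more than 1.3-fold with an unadjusted p under 0.05 follows the study, whose t-test was run as an alternative. Symbols come from the platform annotation, where 34945 probe sets name 1 gene, 932 several and 9160 none. Per gene, the probe set with the highest mean over the arrays was used unless stated. Every gene of the set is named in the text by rule. The members and all gene lists were chosen with earlier results of these data known. Alternatives were a replicate block, another variance prior, removal of the dimmest 40% of probe sets, further normalization, a median over a gene's probe sets, specific probe sets and each array left out. Protein sequences were not analysed here. Fits were tested on simulated data, and figures were drawn with matplotlib 3.10.9.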

Additional observations from a re-analysis of the deposited data

How the results depend on the processing

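With the methods' t-test 200 probe sets passed, against 688 with limma, and 0 chain and 0 enzyme probe sets. With 1 array left out the count over all probe sets was 739 to 3452, highest without Junf/f replicate 2, that of chains was 1 to 5 and that of enzymes 0 to 3, with 0 without Jun delta mu replicate 1 and 1 without Jun delta mu replicate 2. Counts at an adjusted p under 0.05 were 0 in each of these fits. The chain median was 0.066 without the dimmest 40% of probe sets and 0.0422 to 0.0918 with 1 array left out, and the enzyme median was -0.0024 to 0.0736. Summarizing a gene by the median of its probe sets turned *Col6a2* to 0.0132 and *Plod1* to -0.0259. It ended the calls on *Col8a1*, *Col14a1* and *Loxl4*, at 0.29, 0.03 and 0.21, and gave calls on *P4ha1* and *Bmp1*, at -0.48 and 0.43. For *Col8a1*, *Col14a1* and *Bmp1* this median was on each array the reading of the middle probe set. For *Bmp1* that probe set is the one already called. Leaving out 1 array turned the sign of genes whose difference was small. The ranges were -0.15 to 0.15 for *Col1a2*, -0.15 to 0.23 for *Col3a1*, -0.0082 to 0.1356 for *Col5a1* and -0.0949 to 0.0253 for *Col6a2*. They were -0.0004 to 0.29 for *Lox*, -0.028 to 0.1548 for *Loxl1*, -0.12 to 0.19 for *Plod1* and -0.0704 to 0.0081 for *Plod3*. They were -0.0671 to 0.2521 for *P4ha2*, -0.13 to 0.14 for *Pcolce* and -0.34 to 0.0079 for *Serpinh1*. The cause was not tested.

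With the replicate number as a block, 683 probe sets passed, 2 of chains and 4 of enzymes, where the brightest *P4ha1* probe set also passed, at -0.40. The deviations of same-numbered arrays from their group means correlated at r = 0.028, so no pairing was seen across probe sets as a whole. Whether same-numbered hearts shared a litter is not stated. No other call on the 70 probe sets of the set changed with the block, which was not tabulated for the marker genes. With 2 arrays a group, small changes cannot be seen for any gene of the set. Where the interval exceeds 1.3-fold, a change of that size or more is not excluded. Dim probe sets carry the calls on *Loxl4* and *Bmp1*.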
